A study of Homo sapiens with 4 samples.

Results

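The Hedgehog pathway genes described here are 9 genes chosen by name, without regard to their level, out of 25133 rows with a gene symbol: PTCH1, HHIP, GAS1, SMO, KIF7, SUFU, GLI1, GLI2 and GLI3. All 9 were found. RNA sequencing was done on MDA-MB-231, an established line of human breast cancer cells, infected by lentivirus with a scrambled short hairpin (shSCR, genotype given as WT) or with a hairpin against JARID2 (shJARID2, genotype given as JARID2 knockdown). Each group had 2 libraries. All 4 were grown in the same medium with serum, and no Hedgehog ligand or inhibitor is named for any of them. The sources used here do not give the hairpin sequence, the time after infection or whether replicates were separate cultures, so a p-value here reflects library-to-library spread, which may be technical. JARID2, which helps recruit Polycomb repressive complex 2 (PRC2), a histone H3 methyltransferase that represses developmental genes, was at 10.8 and 10.8 FPKM under shSCR, against 3.88 and 3.91 under shJARID2.

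In the Hedgehog pathway a secreted ligand binds the receptor PTCH1, which otherwise holds the membrane protein SMO inactive. Active SMO gathers in the primary cilium and frees the GLI transcription factors from their binding partner SUFU. GLI2 is the main activator, GLI3 is largely cut to a repressor when no ligand is present, and GLI1 is both an activator and a target gene. PTCH1 and HHIP are also target genes, whose products dampen the signal. GLI factors bind DNA around the letters GACCACCCA.

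Promoter sequences from RefSeq (GRCh38.p14), running from 250 bases before to 50 bases after a start site, matched 7 of the 9 genes, in 12 windows: PTCH1, HHIP, GAS1, SMO, KIF7, SUFU and GLI2. The letters GACCACCCA, searched on both strands, were in 1 of these 12 windows, at PTCH1, and in 0.236% of 35116 promoter windows of all genes. The core CCACCCA, which lies inside the longer motif, was in 2 of the 12 windows, at PTCH1 and GLI2, and in 9.19% of all windows. Both windows are shown because they hold the only matches among the 12 windows and belong to a target gene and to the GLI gene that changed most. GLI1 and GLI3 had no window and were not searched. The matches are in capitals, written as the reverse complement of the motif and its core (TGGGTGGTC and TGGGTGG). The PTCH1 stretch is chr9:95509267-95509516 on the - strand, and its match begins 172 bases before the start site. The GLI2 stretch is chr2:120735682-120735867 on the + strand. It begins after the part of the window that GENCODE 29 places in a GLI2 exon, and its match begins 164 bases before the RefSeq start site. GENCODE 29 starts GLI2 at 120735623, so by that annotation the stretch lies inside the gene. A match describes letters only, and no binding was measured.
PTCH1: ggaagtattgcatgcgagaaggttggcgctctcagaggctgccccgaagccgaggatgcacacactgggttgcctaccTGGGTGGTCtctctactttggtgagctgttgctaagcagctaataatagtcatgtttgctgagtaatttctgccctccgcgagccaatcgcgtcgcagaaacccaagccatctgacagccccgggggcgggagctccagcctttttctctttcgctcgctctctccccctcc
GLI2: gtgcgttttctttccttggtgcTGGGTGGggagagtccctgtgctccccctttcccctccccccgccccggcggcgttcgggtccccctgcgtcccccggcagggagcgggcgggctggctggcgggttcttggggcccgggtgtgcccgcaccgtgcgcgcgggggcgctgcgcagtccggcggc

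Levels are FPKM, the deposited unit, fragments per kilobase of exon relative to library size. They allow for exon length but not for GC content, so levels of different genes compare only roughly. Low FPKM values fell on steps of 1 read, which gave depths from 12800000 to 16200000 reads per library and whole reads for each member. A change is the difference in mean log2(FPKM + 1), shJARID2 minus shSCR, and understates what happens to low genes. It was tested with limma over all 12455 genes with a mean of at least 1 FPKM. Genes with an adjusted p below 0.05 (Benjamini-Hochberg) are said to be called. Across 12044 genes with a value, changes followed the GC content of transcripts (Spearman's rho -0.67, across genes, which are not independent replicates), so a value with that trend removed from each library stands beside the measured ones as GC-corrected. Of the markers of the line, CD44, AXL and CAV1 were at 68.9 FPKM or more in every library, and ESR1, PGR and CDH1 were at 0.203 FPKM or less. AXL fell from 393 and 417 to 167 and 186 FPKM (-1.19, GC-corrected -0.62). CAV1 rose from 101 and 99.0 to 205 and 186 FPKM (0.95, GC-corrected 0.80), and CD44 changed by 0.19 (GC-corrected 0.11, not passed). VIM, a mesenchymal filament gene that defines the line, was at only 2.10 to 4.20 FPKM. Other genes overlap 24.4% of its exon length. ERBB2, listed as a gene low in this line, was at 6.58 to 15.7 FPKM. The summed FPKM of 7 fibroblast markers was 1.17 and 1.36 under shSCR, against 0.659 and 0.577 under shJARID2, with COL1A2 at 0 in 3 libraries. COL1A1 was the largest part of this sum, at 0.723 and 0.837, then 0.377 and 0.278 FPKM. DCN went the other way, with 1 read in each shSCR library and 5 in each shJARID2 library. The summed FPKM of 6 luminal epithelial markers was 38.9 and 41.5, then 20.9 and 22.5. EPCAM in that list nevertheless rose from 1.36 and 1.35 to 4.90 and 3.78 FPKM (1.18, GC-corrected 0.99, adjusted p = 0.0032 as measured, limma). KRT8, KRT18, KRT19 and FOXA1 fell as measured, and after GC correction KRT18 (-0.33) and FOXA1 (0.17) did not pass. The part of either list in the changes below was not tested. Within a culture, fewer expressing cells and less RNA per cell cannot be told apart.

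Of the 9 members, 5 passed the filter on low values. Of these, 4 fell and GLI3 did not pass. Across all genes tested 59.7% were called, 31.6% lower and 28.0% higher, so a call by itself was common in these libraries. The groups did not overlap for the 4 members that fell, and 43.1% of all genes tested were likewise separate and lower. After GC correction 2 members were lower, GLI2 and PTCH1, against 21.5% of genes lower and 44.2% called in all. When GC correction was joined with a replicate block, 1 was lower, GLI2. The other 4 members, HHIP, GAS1, SMO and GLI1, lay below the filter.

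**Figure D1:**
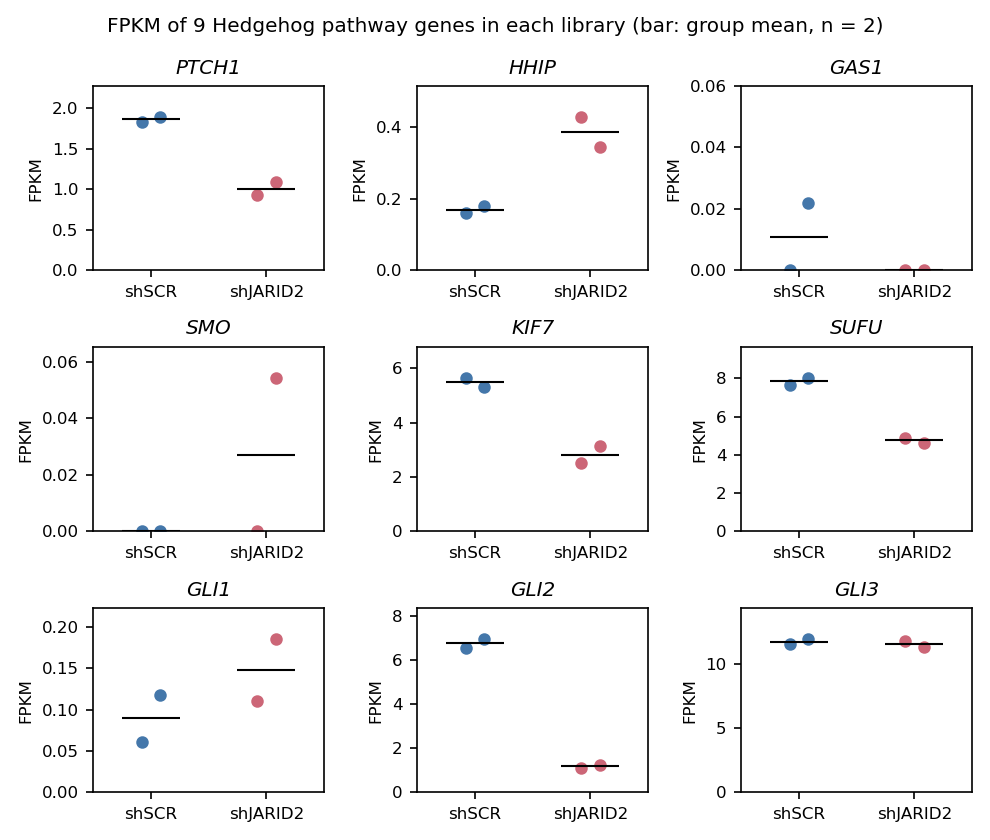
FPKM (vertical axes, each from 0) of the 9 genes in the shSCR and shJARID2 libraries, with 1 point per library and a bar at the group mean (n = 2). GLI2 lies between 6.55 and 6.95 in shSCR and between 1.13 and 1.23 in shJARID2, and the GLI3 points of both groups overlap.

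The receptor end of the pathway was listed at low levels. PTCH1, the ligand receptor (chromosome 9, 95442980 to 95517057, - strand, GRCh38), was at 1.82 and 1.89 FPKM under shSCR, against 0.926 and 1.08 under shJARID2. These are 469, 508, 199 and 230 reads, and both knockdown libraries lay below both controls. The mean went from 1.86 ± 0.0478 to 1.004 ± 0.111 FPKM (SD, n = 2), a ratio of 0.541 that counting error alone places between 0.481 and 0.606 (95% exact interval). PTCH1 fell by 0.51 on the log2 scale (SE 0.12, adjusted p = 0.021, limma), and by 0.47 after GC correction (adjusted p = 0.029, limma). Its transcripts have a GC content of 49.7%. The call was lost without shSCR replicate 1 (adjusted p = 0.086, limma), without shSCR replicate 2 (adjusted p = 0.10, limma) and without shJARID2 replicate 1 (adjusted p = 0.066, limma). The size of the fall ranged from 0.46 to 0.57 over these and the remaining omission.

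SMO, the signal transducer (chromosome 7, 129188872 to 129213545, + strand), was listed at 0 in both shSCR libraries and in shJARID2 replicate 1, and at 0.0544 FPKM, or 3 reads, in shJARID2 replicate 2. A count of 0 allows up to 3 reads, which is 0.0449, 0.0430 and 0.0537 FPKM in those libraries. SMO transcript was therefore at or under the limit of detection in all 4 libraries, and no fold is given. GAS1, a membrane co-receptor that helps ligand reach PTCH1 (chromosome 9, 86944363 to 86947189, - strand), had 1 read in shSCR replicate 2 (0.0219 FPKM) and none elsewhere. A low listing need not mean a silent gene, since VIM was also listed low, and among 84 cytosolic ribosomal protein genes 2 stayed below 1 FPKM in every library.

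HHIP, a membrane protein that binds and sequesters ligand (chromosome 4, 144646021 to 144745271, + strand), went the other way at a low level. It was at 0.160 and 0.179 FPKM under shSCR, against 0.428 and 0.343 under shJARID2, from 30, 35, 67 and 53 reads. Both knockdown libraries lay above both controls, but separate groups were common here. Of all genes tested, a set without HHIP, 43.1% were separate in the lower direction alone. The ratio of reads per depth was 2.27, with an exact interval for counting error from 1.67 to 3.12. An exact permutation test of the FPKM gave p = 0.333, two-sided, the smallest that 2 against 2 libraries allow. HHIP lay below the filter of the main test. With no such filter it did not pass, at 0.24 (SE 0.061, adjusted p = 0.068, limma). With limma-voom on the recovered reads it was called higher (1.17, adjusted p = 0.0015, limma-voom), where 28.9% of 13902 genes were. In a GC correction extended to genes from a mean of 0.25 FPKM the value was 0.024 (adjusted p = 0.89, limma). HHIP has the lowest transcript GC content of the 9 genes, 43.5%.

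The cytoplasmic regulators KIF7 and SUFU were both lower as measured. KIF7, a kinesin that organises the tip of the primary cilium and restrains GLI proteins (chromosome 15, 89608789 to 89655451, - strand), was at 5.65 and 5.32 FPKM under shSCR, against 2.53 and 3.12 under shJARID2. Its reads were 438, 431, 164 and 200, and the groups did not overlap. KIF7 fell by 0.77 (SE 0.11, adjusted p = 0.0052, limma), with a ratio of mean FPKM of 0.515. After GC correction the value was 0.021 (95% interval -0.23 to 0.27) and did not pass (adjusted p = 0.87, limma). Its transcripts have the highest GC content among the members, 64.1%. Exons of TICRR on the other strand cover 11.8% of the KIF7 exons, and since the use of strand in counting is not given, the KIF7 call is uncertain.

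SUFU, which binds GLI proteins in the cytoplasm and keeps them inactive (chromosome 10, 102503987 to 102633535, + strand), was at 7.66 and 8.04 FPKM under shSCR, against 4.87 and 4.64 under shJARID2. These values stand for 815, 893, 433 and 408 reads, and the groups were separate. The mean went from 7.85 ± 0.266 to 4.76 ± 0.162 FPKM (SD, n = 2), a ratio of 0.606. SUFU fell by 0.62 (SE 0.067, adjusted p = 0.0028, limma). The GC-corrected value was -0.24 (95% interval -0.42 to -0.050) and did not pass (adjusted p = 0.052, limma). With the replicate block added it did not pass either (adjusted p = 0.080, limma). In the GC correction extended to genes from a mean of 0.25 FPKM, chosen after seeing the data, SUFU was called lower (-0.27, adjusted p = 0.042, limma). SUFU transcripts have a GC content of 55.9%.

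**Figure D2:**
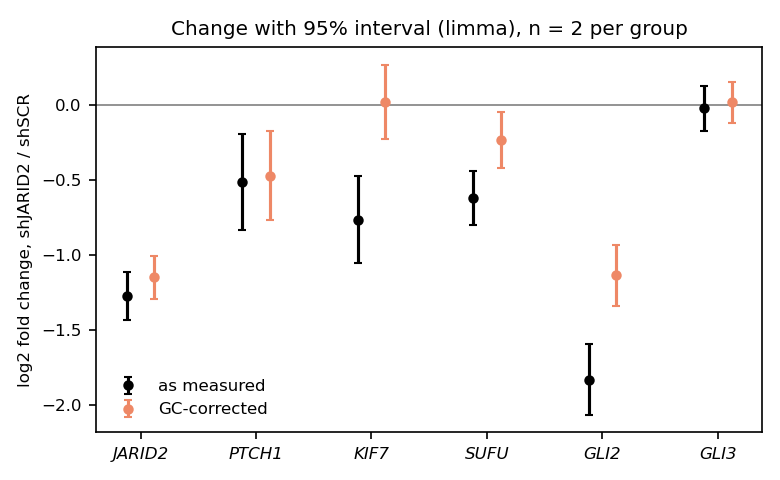
Log2 fold change of shJARID2 against shSCR (vertical axis) for JARID2 and the 5 tested members, as measured (black) and GC-corrected (orange), with 95% intervals from limma (n = 2 per group). GLI2 stays below 0 under both, at -1.83 and -1.13, whereas KIF7 moves from -0.77 to 0.021.

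The GLI factors themselves parted. GLI2 (chromosome 2, 120735623 to 120992653, + strand) was at 6.55 and 6.95 FPKM under shSCR, against 1.13 and 1.23 under shJARID2. In reads these were 745, 826, 107 and 116, so both knockdown libraries were far below both controls. Mean FPKM went from 6.75 ± 0.285 to 1.18 ± 0.0768 (SD, n = 2), 5.72-fold lower. GLI2 fell by 1.83 on the log2(FPKM + 1) scale (SE 0.088, adjusted p = 0.0014, limma), the 62nd lowest value among 12455 genes, and by 2.51 with limma-voom on reads. Its GC-corrected value was -1.13 (SE 0.076, adjusted p = 0.0020, limma), the 191st lowest among 12044. GLI2 transcripts have a GC content of 61.9%, and no exon of another gene overlaps its own. Its call held in each of the 15 alternatives run.

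GLI3 (chromosome 7, 41960950 to 42237870, - strand) was the most abundant member, at 11.6 and 12.01 FPKM under shSCR, against 11.8 and 11.3 under shJARID2. The groups overlapped, on 1963, 2129, 1677 and 1589 reads. Its log2 fold change was -0.024 with a 95% interval from -0.17 to 0.12 (adjusted p = 0.73, limma), and 0.018 after GC correction (interval -0.12 to 0.16). Its sign turned with scaling as well, to 0.00026 with median-ratio and 0.012 with TMM scaling, none of which passed. GLI3 transcripts have the same GC content as those of PTCH1 to 3 digits, 49.7%.

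GLI1 (chromosome 12, 57460135 to 57472262, + strand) was at 0.0614 and 0.118 FPKM under shSCR, against 0.110 and 0.186 under shJARID2, on 4, 8, 6 and 10 reads. The groups overlapped. The ratio of reads per depth was 1.64 with an exact interval from 0.728 to 3.80, so a difference was not detectable at this depth. Without the filter on low values its log2 fold change was 0.075 (adjusted p = 0.44, limma).

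GLI2 took a smaller part of the summed GLI FPKM in both knockdown libraries. The shares and ratios here are as measured, so the GC trend is still in them. GC-corrected changes were -1.13 for GLI2, -0.24 for SUFU (not passed), -0.47 for PTCH1 and 0.018 for GLI3 (not passed). GLI2 made up 36.0% and 36.4% of the summed FPKM of the 3 GLI genes in shSCR and 8.62% and 9.68% in shJARID2. The sum itself was 18.2 and 19.1 FPKM, then 13.1 and 12.8. The ratio of GLI2 to GLI3 within a library went from 0.572 ± 0.00892 to 0.102 ± 0.00970 (SD, n = 2), and the groups did not overlap. An exact permutation test of this ratio gave p = 0.333, two-sided, the smallest possible with 2 against 2. SUFU over GLI3 went from 0.666 ± 0.00481 to 0.411 ± 0.00162, and PTCH1 over GLI3 from 0.158 ± 0.000145 to 0.0869 ± 0.0122, with the same p in the exact permutation test. By mean FPKM in shSCR the order was GLI3, SUFU, GLI2, KIF7, PTCH1, HHIP, GLI1, GAS1 and SMO, where GAS1 and SMO could not be separated. In shJARID2 the order was GLI3, SUFU, KIF7, GLI2, PTCH1, HHIP, GLI1, SMO and GAS1. GLI2 and PTCH1, neighbours there at 1.18 ± 0.0768 and 1.004 ± 0.111 FPKM, differed by less than the sum of their SDs, as did SMO and GAS1.

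**Figure D3:**
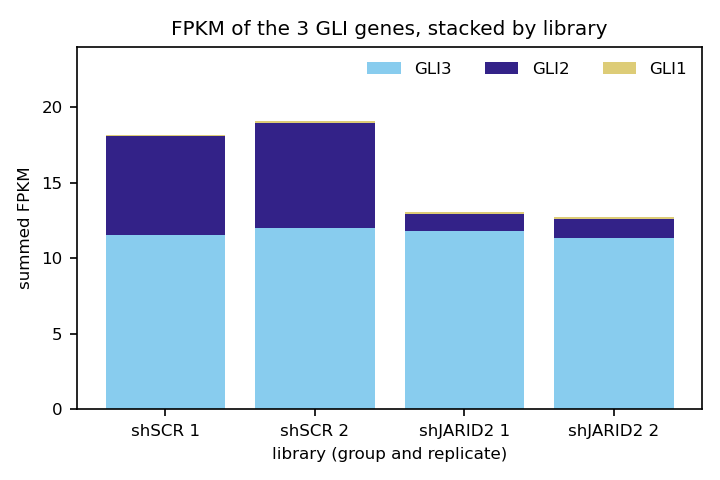
FPKM of GLI3, GLI2 and GLI1, as measured and not GC-corrected, stacked for each library (vertical axis, from 0). The GLI2 segment shrinks from 36.0% and 36.4% of the stack in shSCR to 8.62% and 9.68% in shJARID2, while the GLI3 segment is between 11.3 and 12.01 FPKM.

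The place of the members in the GC trend differed. GLI3 and PTCH1 share a GC content but had changes of -0.024 and -0.51. KIF7 and GLI2 are both above 60% GC by this measure, at 64.1% and 61.9%, with changes of -0.77 and -1.83. Correction moved PTCH1 by little (-0.51 to -0.47), GLI2 by more (-1.83 to -1.13), and KIF7 to the other side of 0. Whether the trend is a property of the libraries or of the cells was not tested.

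**Figure D4:**
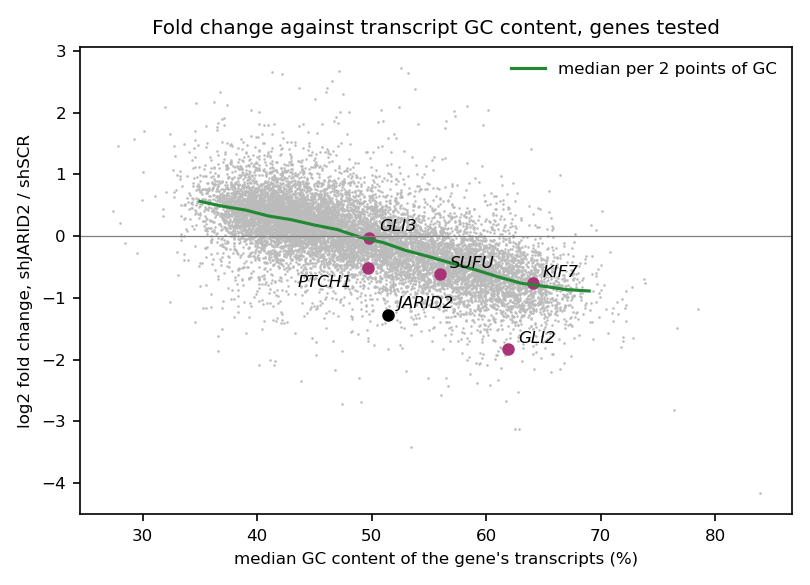
Log2 fold change of shJARID2 against shSCR (vertical axis) against the median GC content of a gene's transcripts in percent (horizontal axis) for 12044 tested genes (grey), with the median per 2 points of GC (green line), the tested members (purple) and JARID2 (black). KIF7 and GLI3 sit near the line, and GLI2 and PTCH1 lie below it.

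Other genes of the pathway were taken by role from lists of 114 genes, of which 110 were found and 80 tested. Of the 80, 21 rose and 31 fell, with a median log2 fold change of 0.052 against -0.018 over all genes tested. In percent, 26.2% were higher and 38.8% lower, beside 28.0% and 31.6% of all genes. After GC correction 12 rose and 26 fell (median -0.093, against 0.00034 over all genes). These are 15.0% and 32.5% of the 80, where 22.7% of all genes with a GC value were higher and 21.5% lower, the shares against which the corrected counts of each list stand as well.

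Ligands were listed at low levels, with the limit given above for such listings. SHH, IHH and DHH, the secreted Hedgehog proteins, were at 0.133 FPKM or less in every library. HHAT, which attaches palmitate to the ligand, and DISP1, which releases it from the cell, were the only tested members of that list and did not pass, at 0.12 (adjusted p = 0.46, limma) and 0.20 (adjusted p = 0.28, limma). Of 7 receptor and co-receptor genes tested, 3 fell and none rose (median -0.24), and 4 were lower after GC correction. MGRN1, a ubiquitin ligase that limits SMO, fell by 0.97 (GC-corrected -0.27), and IQCE, which tethers the ciliary EVC complex, by 0.94 (GC-corrected -0.36). Both still passed after GC correction, and EFCAB7, which acts with IQCE, passed only then (-0.42, 0.051 as measured). When GC correction was joined with the replicate block, the calls of MGRN1 (adjusted p = 0.076, limma), IQCE (adjusted p = 0.068, limma) and EFCAB7 (adjusted p = 0.079, limma) were lost. BOC, a co-receptor below the filter that was picked out with its values in view, had 1.21 and 1.23 FPKM under shSCR, against 0.583 and 0.688 under shJARID2, without overlap. Of all genes tested, 43.1% were likewise separate and lower. With no filter on low values BOC did not pass, at -0.44 (adjusted p = 0.058, limma).

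Kinases and degradation factors of GLI proteins were all expressed and split, with 10 of 31 higher and 14 lower (median 0.052). After GC correction 7 were higher and 10 lower. CSNK1G3 went from called higher (0.23) to called lower (-0.22), and HDAC1 (0.26) and CUL3 (-0.38) were called only after GC correction. CSNK1G2, a casein kinase 1 gene, went from 29.4 and 34.8 to 8.20 and 10.8 FPKM, a fall of 1.66 (GC-corrected -0.83). ARRB1, which encodes a beta-arrestin, fell by 1.13 (GC-corrected -0.63). PRKACA, a catalytic subunit of protein kinase A, which primes GLI2 and GLI3 for processing, fell by 1.11 (GC-corrected -0.75). GRK2, a kinase that phosphorylates SMO, fell by 1.02 (GC-corrected -0.34, with an adjusted p of 0.066 in limma when the replicate block was added). PRKACB, another catalytic subunit of protein kinase A, chosen after its values were seen, rose from 2.91 and 2.89 to 5.12 and 4.79 FPKM (0.61), a call lost after GC correction (0.14). PRKAR1A, the regulatory subunit that holds protein kinase A inactive, was picked with its values in view and rose from 44.4 and 41.2 to 72.1 and 68.9 FPKM (0.71, GC-corrected 0.59). GSK3B, a further kinase of the GLI processing step chosen in the same way, rose by 0.62 (GC-corrected 0.44). Its paralog GSK3A, likewise chosen after its values were seen, fell by 0.63, a call lost after GC correction (-0.033), and exons of another gene cover 11.6% of its own.

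Genes of the primary cilium, where KIF7 and SMO act, were mixed as well: of 26 tested, 8 rose and 6 fell (median 0.17). After GC correction 2 were higher, IFT80 and INPP5E, and 5 lower, KIF3B, IFT20, IFT57, IFT172 and CEP290 (median -0.031). INPP5E had been called lower as measured (-0.33, GC-corrected 0.41). IFT57 (-0.082, GC-corrected -0.32) and CEP290 (0.16, GC-corrected -0.38) were called only after GC correction. The tested cilium genes have a low median GC content of 40.7%. IFT80, an intraflagellar transport subunit, rose from 4.23 and 3.37 to 9.64 and 9.44 FPKM (1.14, GC-corrected 0.73). Exons of SMC4 and another gene cover 35.7% of the IFT80 exons, so that call is uncertain. BBS7, of the ciliary coat complex BBSome, rose by 0.72, but did not pass with GC correction (0.32) or when shSCR replicate 2 was left out (0.59). With the replicate block and GC correction together BBS7 was called higher (0.32, adjusted p = 0.029, limma). With GC correction from a mean of 0.25 FPKM it did not pass (0.36, adjusted p = 0.090, limma). IFT172 fell by 0.68 (GC-corrected -0.63). IFT140 fell by 0.57, which became 0.017 with GC correction, and its call was also lost without shSCR replicate 1 (-0.50), shSCR replicate 2 (-0.64) or shJARID2 replicate 1 (-0.52).

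Of 31 reported GLI target genes found, 17 lay below the filter. Among the 14 tested, 8 fell and 3 rose (median -0.41), and 7 fell and 3 rose after GC correction. The 7 are not all among the 8. ZEB1 was called only after GC correction (-0.31, -0.042 as measured), while JAG2 (-0.49, GC-corrected 0.30) and IGFBP6 lost their calls. FOXA2, a forkhead factor of the neural floor plate and endoderm, went from 33.1 and 36.8 FPKM to 12.2 and 12.03 (-1.45, GC-corrected -0.92). CCND1, which encodes cyclin D1, went from 188 and 187 to 80.4 and 84.9 FPKM (-1.17, GC-corrected -0.40). IGFBP6 fell by 1.17, a call lost after GC correction (-0.39). BMI1, BMP4 and CDK6 were the 3 that rose, by 1.19, 1.01 and 0.53 (GC-corrected 0.83, 1.28 and 0.49). The BMI1 call is uncertain, since exons of the read-through gene COMMD3-BMI1 cover 23.3% of its exons, and those of LTO1 on the other strand cover 10.3% of CCND1. PTHLH, a gene reported to respond to GLI2 in breast cancer cells, was at 0.162 FPKM or less in every library. The lists of targets come from many tissues. GACCACCCA was in none of the 49 promoter windows of 19 of these genes, and the core CCACCCA was in 14.3% of them, beside 9.19% of all windows.

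**Figure D5:**
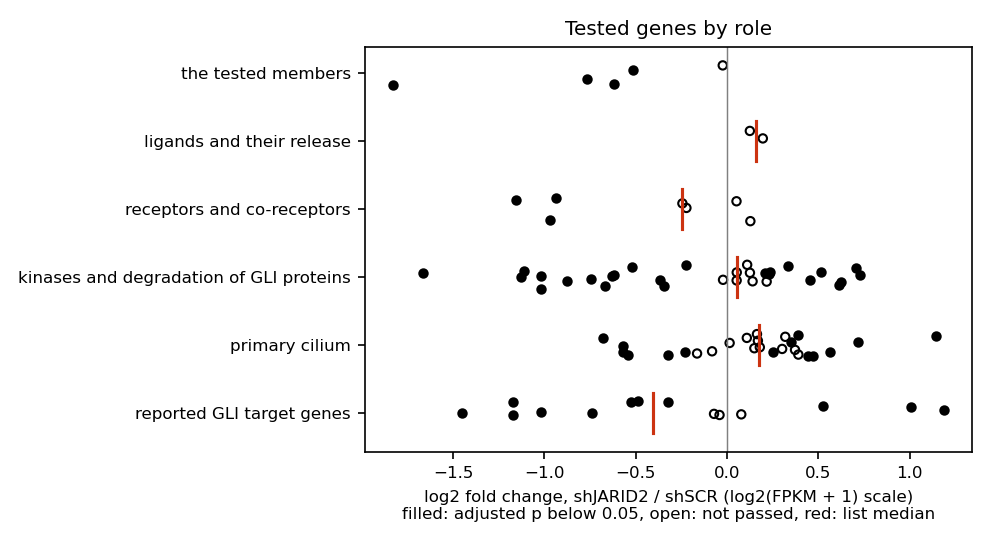
Log2 fold change of shJARID2 against shSCR (horizontal axis) for each tested gene by role (rows), filled where the adjusted p of limma was below 0.05 and open otherwise, with the list median in red for the 5 lists. The kinase and cilium rows spread to both sides of 0, and of 14 target genes 8 are filled on the lower side.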

How the data were processed

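Reads were processed by the authors with Trimmomatic, HISAT2, SAMtools and featureCounts, per the submitters' processing notes, with no versions. The sources used here give neither genome build, annotation nor use of strand. Each library has 1 deposited file, whose column header names its unit as FPKM. The 9 members and the pathway lists were chosen with earlier results of these data known. Groups and replicate numbers came from the labels.

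Rows with a symbol were matched to GENCODE release 29 (24215 of 25133). FPKM times exon length gave whole reads within 0.05 for 94.3% to 95.2% of values up to 20 reads, which is why coordinates and GC content were taken from that release (GRCh38). Rows without a symbol were left out, and held 21.1% to 24.5% of all FPKM. log2(FPKM + 1) was tested with limma 3.58.1 in R 4.3.3 (trend, group as the only term, 2 residual degrees of freedom). For the GC correction, deviations of each library from the gene mean were smoothed on GC content by loess (span 0.3, degree 2) and subtracted. The steps were tested on simulated data, with changes placed without regard to GC content and with or without a linear GC trend. That cannot show whether the correction also removes true changes of GC-rich genes. Named in the text are JARID2, all members and for each list the called genes with the largest changes (4 at most), any counted in a group of 5 or fewer, and others where said, except that some results are not reported here. Exact tests and intervals came from scipy 1.17.1, and intervals of read counts cover counting error only. Alternatives were other pseudocounts, filters and scalings, limma-voom on recovered reads, GC correction, a replicate block and omission of each library.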

Additional observations from a re-analysis of the deposited data

How the results depend on the processing

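The main limit is 2 libraries a group, with 2 residual degrees of freedom, and at this depth GLI1, SMO and GAS1 had 10 reads or fewer in each library. The 4 members called lower stayed 4 with pseudocounts of 0.1 and 0.5, a mean of at least 0.25 FPKM, both scalings, limma-voom and the replicate block, became 3 without a filter on low values, 2 with GC correction, 1 with the replicate block and GC correction together, and 3 with GC correction from a mean of 0.25 FPKM, an alternative chosen after seeing the data. No member was called higher except 1, HHIP, with limma-voom. Leaving out each library gave 3 to 4 members lower and 0 higher, 11 to 19 other pathway genes higher and 22 to 30 lower, and 2168 to 3068 of all genes higher and 2462 to 3763 lower. Other pathway genes called higher went from 21 to 12 under each of the 3 GC corrections. KIF7 turned to 0.021, IFT140 to 0.017 and EFCAB7 to -0.42 with GC correction, with and without the block, and EFCAB7 to -0.36 with GC correction from a mean of 0.25 FPKM. GLI3, never called, turned to 0.018 with GC correction, with and without the block, 0.00026 with median-ratio and 0.012 with TMM scaling, 0.0012 without shSCR replicate 2, 0.0044 without shJARID2 replicate 2 (the omissions ranged from -0.052 to 0.0044), and 0.023 with GC correction from a mean of 0.25 FPKM. On its own the replicate block changed no call among the 30 tested genes refitted under every alternative. Same-numbered libraries did not deviate together (r = 0.029 across genes, -0.012 GC-corrected), so the number is not taken as a pairing. All genes called lower went from 3941 to 3831 with the block, and to 2584, 2333 and 2625 with GC correction, with block and GC correction, and with GC correction from a mean of 0.25 FPKM. Of 450 values of the 30 refitted genes under an alternative, 410 kept direction and side of the threshold. Of the rest, 26 lost the call in the same direction and 14 changed sign. Many of the 30 were picked for large changes or with values in view, so this tally does not stand for other genes. INPP5E and CSNK1G3, whose calls turned over with GC correction, were not among them.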

Other observations

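The genes most like GLI2 and GLI3 were found by the root mean square distance between log2(FPKM + 1) values centred on each gene, over 4 libraries. This is a description of 4 points per gene that mostly reflects the difference between the groups. For GLI2 the nearest were MAF1 (distance 0.023), UBB (0.030) and C20orf27 (0.045). MAF1, a repressor of RNA polymerase III, was at 22.5 and 24.4 FPKM under shSCR, against 5.49 and 5.98 under shJARID2. UBB, a polyubiquitin gene, was at 30.5 and 30.6, then 7.48 and 8.24. For GLI3 the nearest were KIF2A (0.0042), LARP4B (0.0077) and HPCAL1 (0.0082). KIF2A, a microtubule-depolymerising kinesin, was at 22.8 and 23.6 FPKM under shSCR, against 23.1 and 22.2 under shJARID2.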
